A study of Mus musculus with 9 samples.

Results

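The genes described here build, cap, cut, cross-link and recycle actin filaments. The list held 40 genes, of which 37 had a probe set naming them alone, among 18193 such genes on the array. All 37 passed the filter on dim genes and were tested with 13078 genes in all. For each gene the probe set with the highest mean over the 9 arrays was used, and the choice used no difference between the groups. Actr2 and Arpc3 were named by no probe set used here, and Arpc1b only by probe sets that also name Gm5637. The formin listed as Diap1 is Diaph1 on the array.

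The arrays, of the Affymetrix MOE430 kind, measured RNA of CD11b+ spleen cells of C57BL/6 mice, selected with magnetic beads from adherent splenocytes. The threat group (labelled HighThreat) was 6 mice under repeated social threat, with 1 array per mouse. The control group (LowThreat) was 6 mice kept without threat, combined into 3 pools of 2 animals that are numbered 1-2, 3-4 and 5-6. The comparison asks whether expression in these cells differs with social threat. The sources used here do not give age, sex or the length of the threat. Because a pool averages its animals, the spread among the 3 pools is not the spread among single mice, and p-values measure only the spread among these 9 arrays.

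Actin cycles between single subunits and filaments. Profilin and thymosins hold subunits, the Arp2/3 complex starts branches when WASP or WAVE proteins switch it on, capping proteins stop growth at filament ends, and cofilin and gelsolin cut old filaments. In myeloid cells this cycle drives crawling, engulfment and the shape changes of adhesion. Many of its genes are known targets of the serum response factor, which binds a DNA element called the CArG box.

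Promoter sequences are shown for the members whose window held a CArG box, and for Fscn1, the member with the largest difference. They come from RefSeq on GRCm38.p6, where members were looked up by their listed symbols. Of the 40 listed symbols 35 had a window, 47 windows in all. Each ran from 250 bases before to 50 bases after a start site. Actb, Arpc5l, Coro1b and Nckap1l had none in that table. Diap1 was looked up only under that name and not as Diaph1. Any window of Diaph1 was therefore not searched as a member window. Both strands were searched. A CArG box lay in 3 of the 47 member windows (6.38%) and in 1.63% of 32851 windows of all genes. TATAAA lay in 2 member windows (4.26%), those of Fscn1 and Myh9, and in 13.6% of all. TGACGTCA, the cAMP response element, lay in 2 member windows, those of Fscn1 and Myl6, and in 1.79% of all. These matches describe letters and show no binding. The stretches around the matches are printed 5′ to 3′ on the gene's strand, with the motifs in capitals.
Fscn1, chr5:142960290-142960349, plus strand: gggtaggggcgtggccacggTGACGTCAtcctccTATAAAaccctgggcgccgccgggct
Actg1, chr11:120348546-120348605, minus strand: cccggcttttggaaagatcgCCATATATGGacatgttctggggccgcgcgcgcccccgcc
Arpc4, chr6:113377863-113377922, plus strand: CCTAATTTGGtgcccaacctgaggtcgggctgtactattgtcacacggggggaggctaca
Myl6, chr10:128493040-128493069, minus strand: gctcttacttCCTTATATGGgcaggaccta
In Fscn1 the 2 motifs begin 45 and 31 bases before the start site. The CArG boxes begin 90 bases before it in Actg1, 250 in Arpc4 and 50 before 1 of the 2 starts of Myl6. The 3 genes with a CArG box gave different results, described below with their families: Arpc4 rose, and Actg1 and Myl6 did not pass the test.

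Of the 37 tested members, 19 were higher in threat animals, 6 were lower and 12 did not pass the test (limma over all 13078 genes, Benjamini-Hochberg adjusted p under 0.05, as for every adjusted p below unless a permutation test is named). Among all tested genes 23.8% were higher and 22.0% lower. The share of members that were higher, 51.4%, was above this background. The share that were lower, 16.2% or 6 genes, was slightly below it. The background was not matched for brightness. Under a filter at the 60th percentile, 2804 of 9517 tested genes were called higher and 2629 lower. With that filter 20 members were higher and 6 lower. The median difference, threat minus control, was 0.15 on the log2 scale for members and 0.03 for all tested genes. Most differences were small, with a median size of 0.23, against 0.15 for all tested genes. Only Coro1b rose and only Fscn1 fell by at least 1.5-fold with a call, against 5.31% and 5.90% of all tested genes. The 6 threat arrays lay wholly above the 3 pools for 20 members and wholly below for 7, where all tested genes gave 21.5% and 20.3%. The median SD of a member was 0.04 among pools and 0.05 among threat animals, against 0.083 and 0.085 for all tested genes.

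**Figure D1:**
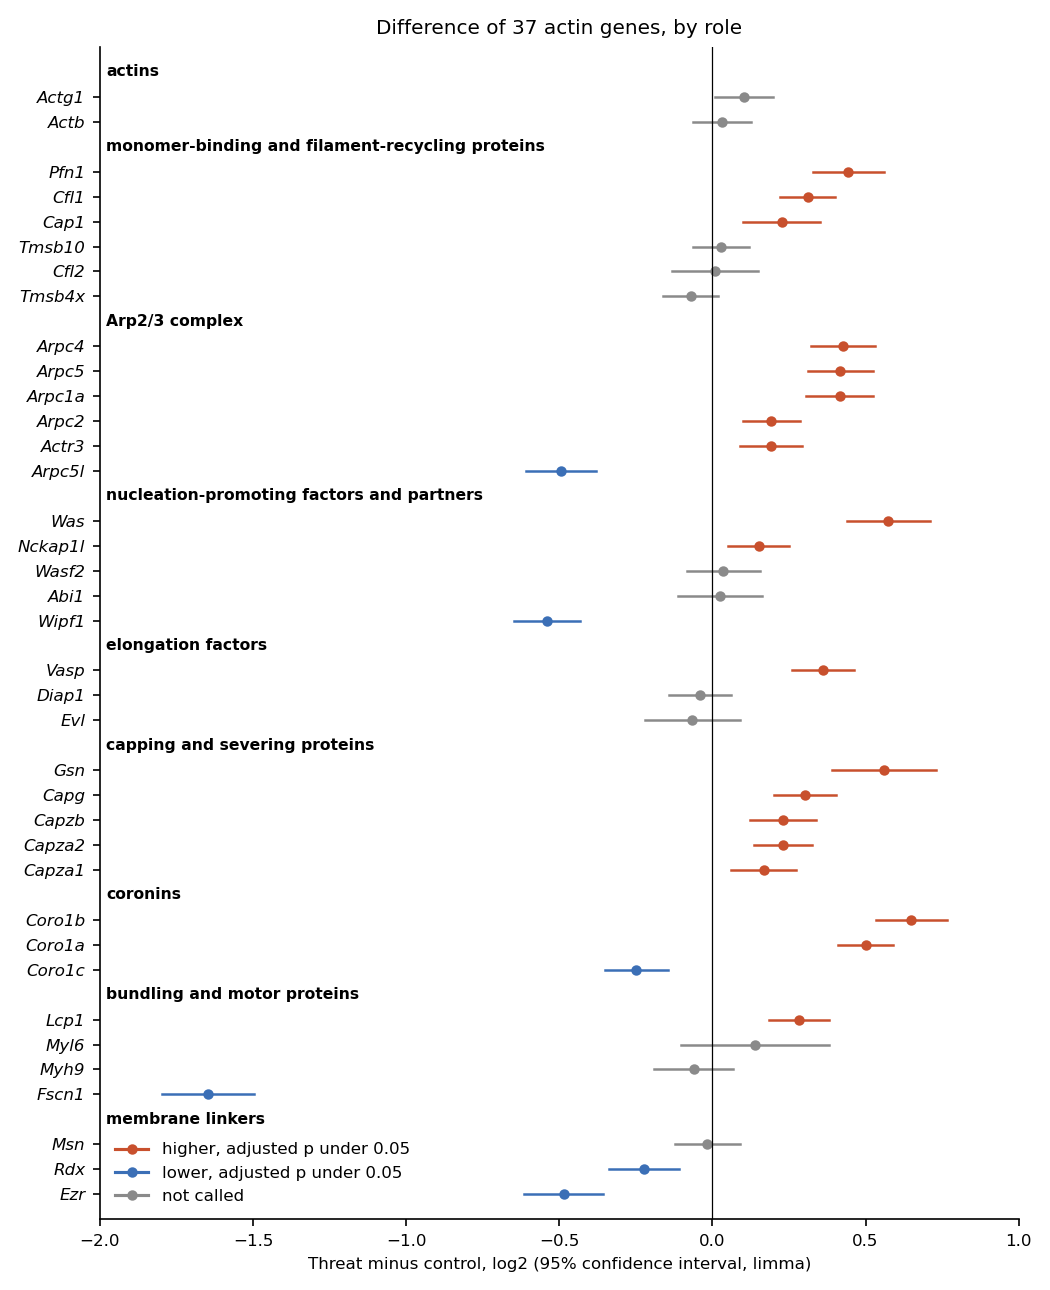
Difference between threat animals and control pools for each of the 37 tested members, on the log2 scale, grouped by role, with 95% intervals from limma. Most points lie between -0.5 and 0.7, and Fscn1 stands alone at -1.65.

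Marker genes of several cell types moved strongly in the same comparison. Arrays correlated at 0.996 to 0.998 within the threat group and within the control group, and at 0.972 to 0.977 between the groups. The selection marker Itgam, which encodes CD11b, rose from 7.93 to 8.50. Of 13 tested granulocyte genes, 12 were higher and none lower, and their mean per array went from 8.92 to 9.10 in pools to 10.27 to 10.69 in threat animals. Of 11 B cell genes 10 were lower (6.65 to 6.87 against 4.67 to 5.07), of 9 natural killer cell genes 8 were lower (5.58 to 5.72 against 3.90 to 4.09), and of 9 dendritic cell genes 8 were lower (5.99 to 6.08 against 5.05 to 5.12). Of 10 red pulp macrophage genes 8 were lower and 1 higher (6.80 to 6.86 against 6.07 to 6.15). Of 8 monocyte and macrophage genes 5 were higher and 1 lower (9.62 to 9.71 against 9.82 to 9.89). In such bulk samples, fewer cells of a type and less RNA per cell cannot be told apart. Of 7 plasma cell genes 5 were lower and 1 higher (7.18 to 7.36 against 6.30 to 6.44). Of 8 T cell genes 4 were lower and none higher, and of 7 platelet genes 4 were higher and 1 lower. The 4 tested erythroid and 8 tested stromal genes each had 1 call in either direction. The part of these shifts in the results for actin genes was not tested.

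The 2 cytoplasmic actins, which make the filaments, did not pass the test. Actb, the brightest member, read 12.994, 12.996 and 13.06 in pools 1-2, 3-4 and 5-6. The 6 threat animals read 12.999 at the lowest, 13.05 in the median and 13.09 at the highest. The groups overlapped, and the difference was 0.03 (SE 0.04, 95% interval -0.06 to 0.13, adjusted p = 0.602). Actg1 read 12.18, 12.24 and 12.23 in the pools and 12.28, 12.33 and 12.35 in threat animals. The groups did not overlap, and the difference of 0.10 (SE 0.04, adjusted p = 0.0716) missed the threshold, though under 4 other settings it passed.

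A second Actb probe set gave another picture. This far dimmer one read 7.83, 8.46 and 8.43 in the pools and 7.18 to 7.46 in threat animals, wholly below them. Pool 1-2 stood below the other pools. The set fell by 0.87 (SE 0.13, adjusted p = 2.4e-04 when every probe set was fitted on its own). The array also carries 3 control probe sets along the Actb transcript. The 3′ set averaged 12.96 ± 0.07 (SD, n = 3) in pools and 13.03 ± 0.02 (SD, n = 6) in threat animals. That difference of 0.06 missed the threshold after adjustment (exact permutation p = 0.0476, adjusted 0.0571 over 6 comparisons). The middle set rose by 0.14 and the 5′ set by 0.18, each with the smallest p that 84 divisions of the arrays allow (exact permutation p = 0.0119, adjusted 0.0238). The 3′ value minus the 5′ value, a usual sign of RNA integrity or of labelling length, went from 0.47 ± 0.06 to 0.36 ± 0.03 (exact permutation p = 0.0238, adjusted 0.0357). The same measure on Gapdh changed by -0.04 (exact permutation p = 0.512). On Actb this measure moved with the groups, but they overlapped: threat animal 3 read 0.423 and pool 1-2 read 0.405. Its part in the members' results was not tested. With pool 3-4 or pool 5-6 left out, the exact permutation p of the 3′ minus 5′ difference was 0.0714.

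**Figure D2:**
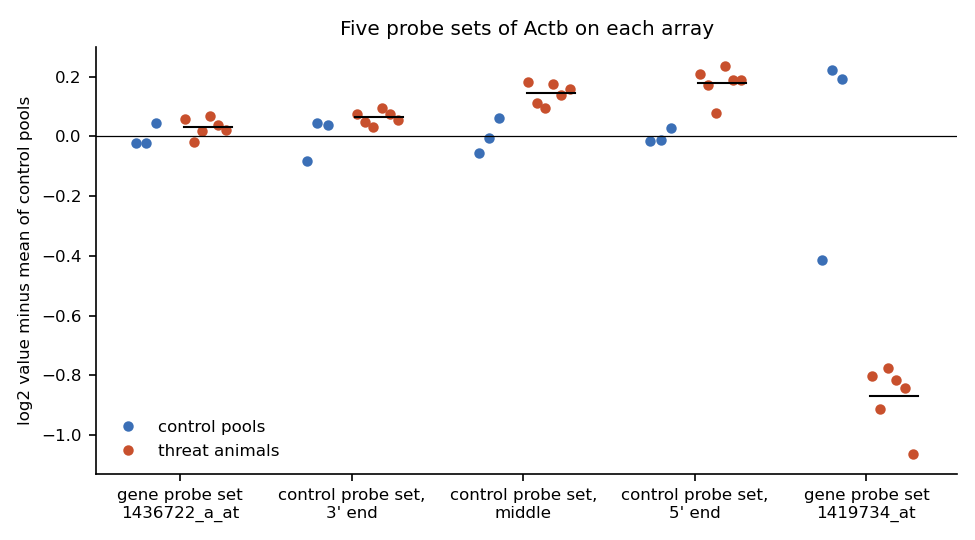
Log2 value of 5 Actb probe sets on each array, minus the mean of the control pools for that set, with points for 3 control pools and 6 threat animals and a bar at the threat mean. The gene's bright set and the 3 control sets lie up to 0.18 above 0 on average, and the dim gene set averages -0.87, with every threat animal below every pool.

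Among the 6 genes for proteins that bind or recycle subunits, 3 rose. Pfn1, profilin, which feeds subunits to growing ends, read 10.68, 10.63 and 10.56 in the pools. Threat animals read 10.98, 11.07 and 11.15 (lowest, median, highest), and the groups were well apart. The rise was 0.44 (SE 0.05, adjusted p = 2.1e-05), or 1.36-fold. Cfl1, the cofilin of most cells, read 11.39, 11.37 and 11.35 in pools and 11.66 to 11.70 in threat animals, a rise of 0.31 (SE 0.04, adjusted p = 4.3e-05). Cap1, which helps to recharge subunits, rose by 0.23 (adjusted p = 0.00607), and its other probe set was not called, at 0.17 (adjusted p = 0.153).

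The thymosins and the muscle-type cofilin did not pass the test. Tmsb4x, the main store of single subunits, read 12.93, 12.89 and 12.89 in pools and 12.80, 12.83 and 12.87 in threat animals. All 6 threat animals were below the pools, by 0.07 (SE 0.04, adjusted p = 0.184). Tmsb10, a related thymosin and the brightest gene of this role, read 12.88, 12.90 and 12.84 in pools and 12.88, 12.89 and 12.93 in threat animals. These overlapped, with a difference of 0.03 (adjusted p = 0.613). Of its other 4 probe sets, 1 was called lower, at -0.13 (adjusted p = 0.0484). Cfl2 differed by 0.01 (95% interval -0.13 to 0.15). Both thymosins, like Actb, sit near the top of the arrays' range, whose highest values were 13.29 to 13.57.

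In the Arp2/3 complex, the branching machine, 5 of the 6 tested subunits were higher and 1 was lower. Arpc4 read 9.004, 9.018 and 9.0 in the pools. Threat animals read 9.34, 9.44 and 9.52, and no value reached the pools. The rise was 0.43 (SE 0.05, adjusted p = 1.2e-05), or 1.34-fold. Arpc1a rose by 0.42 (adjusted p = 2.2e-05) and Arpc5 by 0.42 (adjusted p = 1.5e-05). Arpc2, the brightest subunit at 11.82 to 11.85 in pools and 11.98 to 12.06 in threat animals, rose by 0.19 (adjusted p = 0.00254). Actr3, one of the 2 actin-related subunits, rose by 0.19 (adjusted p = 0.00421).

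Arpc5l, an alternative form of the Arpc5 subunit, went the other way. It read 7.22, 7.16 and 7.17 in pools and 6.58, 6.69 and 6.78 in threat animals, with no overlap. The fall was 0.49 (SE 0.05, adjusted p = 6.3e-06), 1.41-fold. Another of its probe sets also fell, by 0.65, and the remaining one differed by 0.04 (adjusted p = 0.768). The probe sets shared by Arpc1b and Gm5637 rose by 0.25 (SE 0.05, adjusted p = 0.00162) and differed by 0.10 (adjusted p = 0.312), and cannot be given to either gene.

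Among the activators of the complex and their partners, Was rose and Wipf1 fell. Was, the WASP of blood cells, read 7.38, 7.30 and 7.17 in pools and 7.74, 7.87 and 7.98 in threat animals. Every threat animal lay above every pool, and the rise was 0.57 (SE 0.06, adjusted p = 8.1e-06), 1.49-fold. Wipf1, which binds and stabilises WASP, read 7.83, 7.81 and 7.76 in pools and 7.17, 7.26 and 7.34 in threat animals. It fell by 0.54 (SE 0.05, adjusted p = 1.9e-06), 1.46-fold, and its other probe set fell by 0.77.

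Of the 3 WAVE complex genes, 1 passed the test. Nckap1l, the blood-cell subunit of that complex, rose by 0.15 (SE 0.05, adjusted p = 0.0182), but not without pool 1-2 (adjusted p = 0.0529) or pool 5-6 (0.0731). Wasf2, the activator itself, differed by 0.04 (adjusted p = 0.633). Abi1, the brightest gene here, read 9.88, 9.93 and 9.83 in pools and 9.75, 9.94 and 10.03 in threat animals, with overlap, a difference of 0.02 (adjusted p = 0.784).

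Of the 3 elongation factors, only Vasp, which extends filaments at the cell edge, passed the test. It read 10.20, 10.09 and 10.20 in pools and 10.48, 10.53 and 10.56 in threat animals, higher in all 6. The rise was 0.36 (SE 0.05, adjusted p = 3.7e-05). Its relative Evl differed by -0.07 (adjusted p = 0.495) and the formin Diap1 by -0.04 (adjusted p = 0.505).

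All 5 capping and severing genes were higher, with no overlap between the groups. Gsn, gelsolin, which cuts and caps filaments when calcium rises, showed the largest change. It read 8.55, 8.54 and 8.39 in pools and 8.87, 9.02 and 9.28 in threat animals, whose SD of 0.14 was high for a member. It rose by 0.56 (SE 0.08, adjusted p = 7.2e-05), 1.47-fold, and 5 of its 6 probe sets were called higher. Capg rose by 0.30 (adjusted p = 1.6e-04).

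The capping protein is made of an alpha and a beta subunit. Capza2, the brightest, read 10.36, 10.34 and 10.30 in pools and 10.52, 10.56 and 10.60 in threat animals, and rose by 0.23 (SE 0.04, adjusted p = 8.6e-04). Capzb rose by 0.23 (adjusted p = 0.00201). Its other probe sets past the filter were not called, at 0.10 (adjusted p = 0.105) and 0.11 (adjusted p = 0.152, with overlap). Capza1 rose by 0.17 (adjusted p = 0.0138), and not without pool 5-6 (adjusted p = 0.0681).

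The coronins, which bind filaments and Arp2/3, held the largest rise of all members. Coro1b read 7.84, 7.97 and 7.78 in pools and 8.458, 8.512 and 8.595 in threat animals, far apart. It rose by 0.65 (SE 0.05, adjusted p = 7.6e-07), 1.57-fold. Coro1a, the coronin of blood cells, read 11.21, 11.19 and 11.17 in pools and 11.66, 11.69 and 11.72 in threat animals. It rose by 0.50 (SE 0.04, adjusted p = 7.6e-07), 1.42-fold, and all 3 of its probe sets were called higher. Coro1c read 7.07, 7.13 and 7.05 against 6.77, 6.85 and 6.88 and fell by 0.25 (SE 0.05, adjusted p = 8.9e-04). Its other probe sets past the filter were dimmer and not called, at -0.21 (adjusted p = 0.117) and -0.0015 (adjusted p = 0.992).

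**Figure D3:**
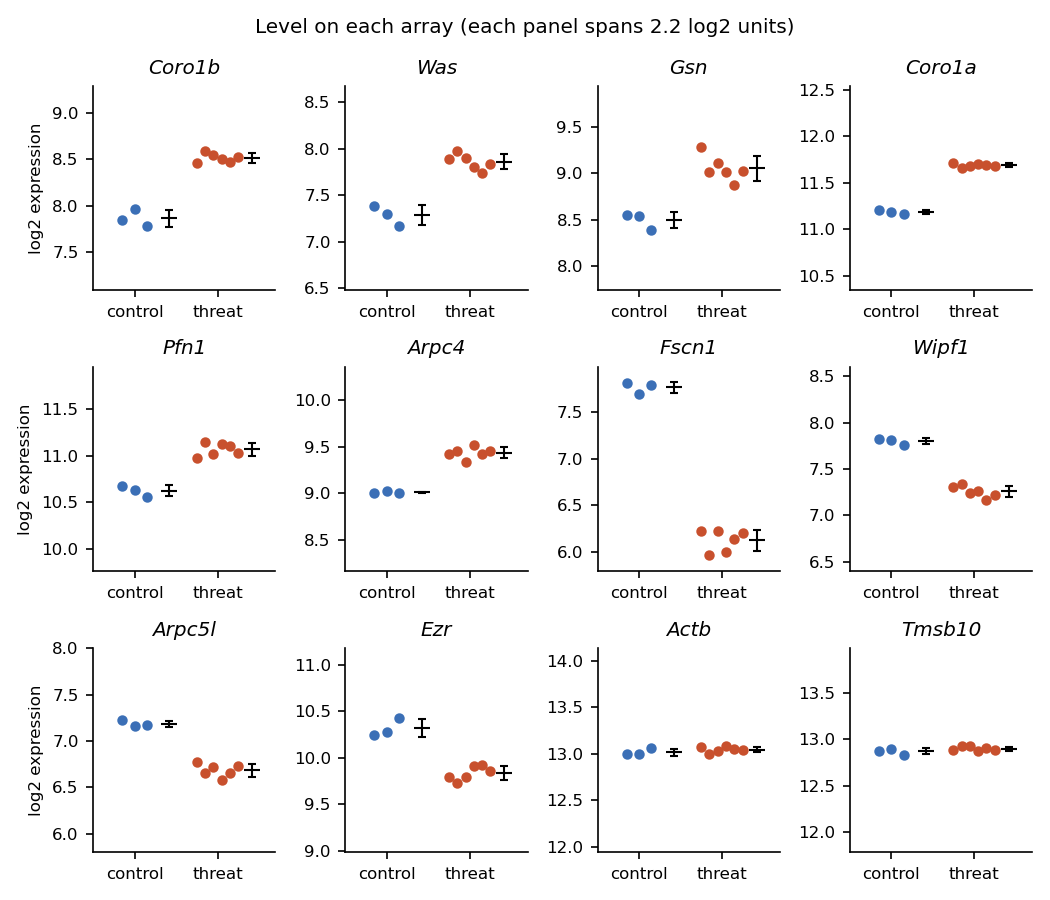
Log2 level of 12 members on each array, with points for 3 control pools and 6 threat animals and the mean with SD beside them. Every panel spans the same range. Coro1b, Was and Gsn are higher in every threat animal, Fscn1, Wipf1, Arpc5l and Ezr are lower in every one, and Actb and Tmsb10 overlap.

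Fscn1, fascin, which packs filaments into stiff bundles and is known for its high level in mature dendritic cells, was the largest change of the members. It read 7.82, 7.70 and 7.79 in pools and 5.96, 6.17 and 6.22 in threat animals, with the groups far apart. It fell by 1.65 (SE 0.07, 95% interval -1.80 to -1.50, adjusted p = 2.2e-09), 3.13-fold. Its 3 other probe sets were dimmer: 1 fell by 0.45 (adjusted p = 0.00708), and the others differed by -0.06 (adjusted p = 0.402) and 0.04 (adjusted p = 0.715). Ccr7, another marker of mature dendritic cells, fell from 9.24 to 7.35, as did most of the dendritic cell list given above. That list had a median difference of -0.86, and the B cell and natural killer cell lists fell more, at -2.04 and -1.62. The part of these shifts in the fall of Fscn1 was not tested.

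Of the other bundling and motor genes, Lcp1, the plastin of blood cells and the brightest of them, rose. It read 11.68, 11.66 and 11.62 in pools and 11.893, 11.921 and 12.004 in threat animals, a rise of 0.28 (SE 0.04, adjusted p = 2.0e-04). Myh9, the heavy chain of non-muscle myosin, differed by -0.06 (adjusted p = 0.430), and none of its 5 probe sets was called. Myl6, a myosin light chain, read 5.73, 5.66 and 6.26 in pools and 5.92 to 6.16 in threat animals, and differed by 0.14 (SE 0.11, adjusted p = 0.334). Without pool 5-6, which was highest, it rose by 0.33 (adjusted p = 0.00216). Probe sets that also name Gm8894 and Gm5526 rose by 0.35 (adjusted p = 2.0e-04) and 0.14 (adjusted p = 0.0411). They averaged 10.69 and 10.61 over all arrays, far brighter than the set used, at 5.98. Their rise cannot be given to Myl6 alone.

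Of the 3 linkers of filaments to the membrane, 2 fell and none was called higher. Ezr read 10.25, 10.28 and 10.43 in pools and 9.73, 9.82 and 9.92 in threat animals, with no overlap. It fell by 0.49 (SE 0.06, adjusted p = 2.3e-05), 1.40-fold, and its other probe set differed by -0.0025 (adjusted p = 0.979). Rdx fell by 0.22 (adjusted p = 0.00348). Msn, the brightest linker, read 10.80, 10.85 and 10.83 in pools and 10.75, 10.80 and 10.89 in threat animals. The groups overlapped, with a difference of -0.02 (SE 0.05, adjusted p = 0.802).

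Related genes were compared in pairs within arrays. Pairs of unrelated genes were not compared, so the counts do not show that unequal change is particular to related genes. Of 17 pairs fixed for comparison, 15 could be compared, and in 12 the signed change of the first gene differed from that of the second within the same arrays (exact permutation over 84 divisions, adjusted over 15 pairs, smallest possible p 0.0119, adjusted 0.0162). Values here are the log2 change of the first gene minus that of the second, so they show how far apart the changes were, not which was larger in size. In 4 pairs the genes were called in opposite directions: Lcp1 minus Fscn1 was 1.93, Arpc5 minus Arpc5l 0.91, and the coronins Coro1b and Coro1a minus Coro1c 0.90 and 0.75. In others only the first gene was called, and it rose: Was minus Wasf2 was 0.54, Vasp minus Evl 0.43 and Cfl1 minus Cfl2 0.30. Among the membrane linkers only Ezr and Rdx were called, and both fell: Msn minus Ezr was 0.47, Msn minus Rdx 0.21 and Ezr minus Rdx -0.26. With probe sets averaged per gene, Msn minus Ezr (0.24, exact permutation adjusted p = 0.0595) and Msn minus Rdx (0.11, 0.370) lost their calls. Capg minus Gsn was -0.26, where both rose, and this call was lost without pool 3-4 (exact permutation adjusted p = 0.0765). Tmsb4x minus Tmsb10 was -0.10, where neither gene was called, and this call was lost without pool 1-2 (exact permutation adjusted p = 0.0893) and under quantile normalization (0.0687). In 3 pairs the difference was not called: Capza1 and Capza2 (-0.06, exact permutation adjusted p = 0.0952), Actb and Actg1 (-0.07, 0.0765), and Coro1a and Coro1b (-0.15, 0.0549). The last 2 of these passed without threat animal 1 (exact permutation adjusted p = 0.0223 and 0.0383), the coronin pair also without pool 3-4 (0.0446), and the actin pair also under quantile normalization (-0.20, 0.0446). When probe sets were averaged per gene, Capza1 minus Capza2 (-0.07, exact permutation adjusted p = 0.0487) and Actb minus Actg1 (-0.52, 0.0198) passed. Under that averaging Tmsb4x minus Tmsb10 lost its call (-0.08, exact permutation adjusted p = 0.0687). The count of 12 fell to 0 without pool 5-6, where the smallest p of 28 divisions is 0.0357.

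**Figure D4:**
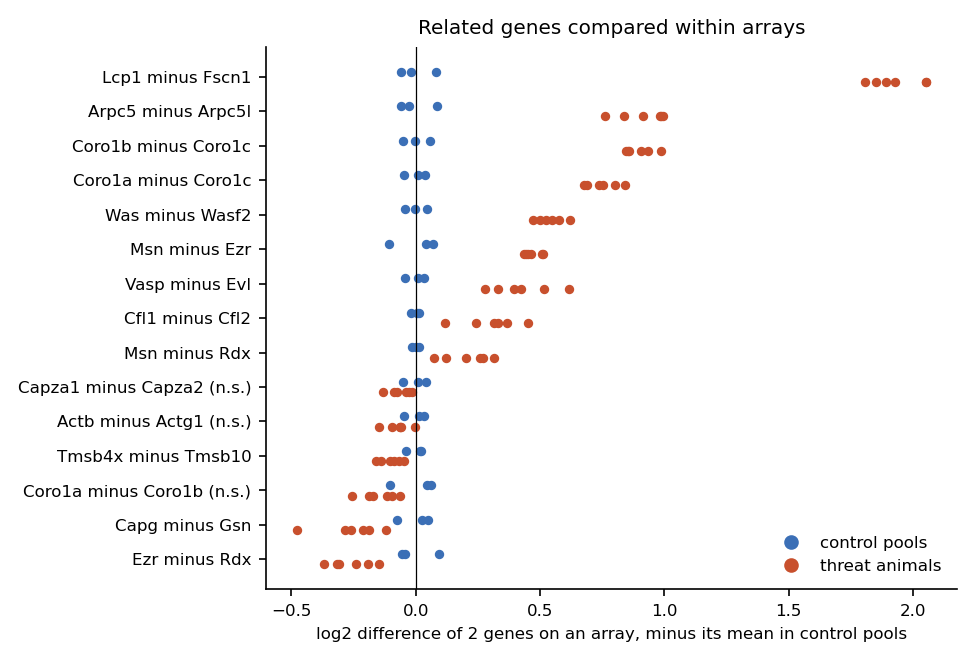
Log2 difference of 2 related genes on each array, minus the mean of that difference in control pools, for the 15 pairs, with points for 3 pools and 6 threat animals. The pair Lcp1 and Fscn1 lies farthest from 0, at 1.93 on average, and n.s. marks the 3 pairs that were not called.

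With the Actb control probe sets left out, no member had probe sets called in opposite directions. For Actb the dim set was called lower, at -0.87. Its middle and 5′ control sets rose by 0.14 and 0.18 (exact permutation adjusted p = 0.0238 each). Of 87 member probe sets past the filter, 33 were called higher and 11 lower when each was fitted on its own, against 18.9% and 20.9% of 27022 probe sets. Of 28 members with several, 9 had all called one way and 7 had none called. The other 12 had some sets uncalled, and their called sets all went in 1 direction. The uncalled sets of these could point the other way. Rdx had -0.22 called and 0.02 uncalled, and Actb had -0.87 called and 0.03 uncalled.

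The genes that steer the same machinery were given by 8 further lists, 120 genes of which 106 were tested. In them 47 were higher (44.3%), 28 were lower (26.4%) and 31 did not pass, with a median difference of 0.06. Among all tested genes 23.8% were higher and 22.0% lower, and the shares of each list below stand beside these. Of these lists, 7 are described here. Among 14 guanine exchange factors 4 rose (28.6%) and 5 fell (35.7%), with Dock8 at 0.39 and Dock10 at -0.50. Among 11 kinases and phosphatases 3 rose (27.3%) and 5 fell (45.5%), with the cofilin kinase Limk2 at 0.37 and the cofilin phosphatase Ssh1 at -0.83.

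Among 18 further WAVE, WASP and formin genes 8 rose (44.4%) and 3 fell (16.7%), led by the formins Daam1 at 0.93 and Fmnl2 at -0.28. Among 13 turnover genes 7 rose (53.8%) and 3 fell (23.1%). Dstn, a relative of cofilin, rose by 0.80 (adjusted p = 7.5e-08) while Gmfb fell by 0.31. Among 21 cross-linkers and tropomyosins 12 rose (57.1%) and 4 fell (19.0%), with Actn1, alpha-actinin, at 0.94 and Tpm1 at -0.45. Among 11 myosins 3 rose (27.3%) and 3 fell (27.3%), with Myo1f at 0.58 and Myo1e at -0.69. Among the serum response factor and its partners, 6 genes, 2 rose (33.3%) and 3 fell (50%). Srf rose from 5.84 to 6.12, Mrtfb, a coactivator, rose by 0.33, and Elk4, another partner, fell by 0.65.

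**Figure D5:**
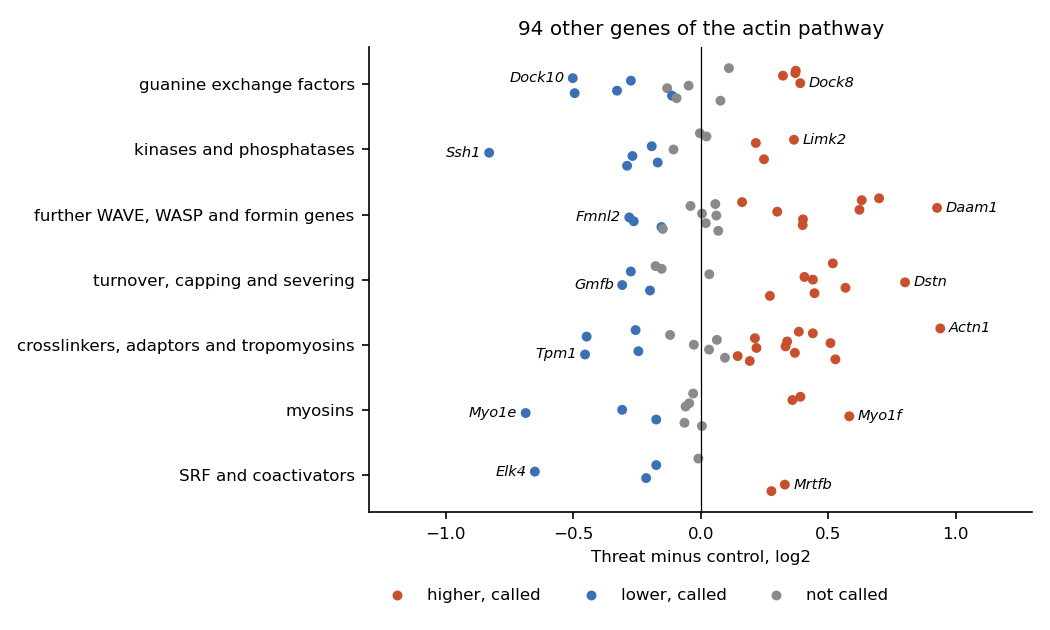
Difference, threat minus control on the log2 scale, for the other actin pathway genes in the 7 lists described, with 1 point per gene coloured by its call. Each list holds genes on both sides of 0, from Ssh1 at -0.83 to Actn1 at 0.94.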

How the data were processed

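The authors deposited log2 expression values for 45101 probe sets on 9 arrays. Per the submitters' processing notes these come from RMA, of which the sources used here give no version. It gives no detection call and makes the arrays' distributions alike. No source states the log base, so it was read off the range of 0.607 to 13.567. Probe sets were named by the platform's annotation and a RefSeq table. Genes entered the test if their brightest probe set averaged at least the 40th percentile, 2.66. Differences were fitted with limma 3.58.1 in R 4.3.3 (lmFit and eBayes, arrays weighted equally), adjusted by Benjamini-Hochberg over 13078 genes at 0.05, and the script was tested on simulated data. Permutation tests were exact and two-sided. Members are accounted for in full. Values on every pool are given for the largest difference and the brightest member of each role and for members past 1.5-fold, other pathway genes by the largest called rise and fall of each list, and Tmsb4x, Cfl1, Arpc4, Wipf1, Coro1c, Myl6, Srf and the marker genes were named beyond that rule. Of the further pathway lists, 1 is counted in the total and not reported here. The members and lists were chosen with earlier results of these data known. The number of arrays limits the precision.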

Additional observations from a re-analysis of the deposited data

How the results depend on the processing

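Across 20 alternatives (19 for Capzb and Abi1, whose plain-suffix probe set is below the filter), 19 of the 25 called members kept their call and direction and 8 of the 12 uncalled members stayed uncalled. Arpc2 lost its call with probe sets averaged per gene, and Coro1c, Rdx and Fscn1 with plain-suffix probe sets preferred (Fscn1 then -0.06). Actg1, Tmsb4x, Myl6 and Actb gained a call somewhere. Actb turned to -0.42 with its probe sets averaged and -0.87 with plain-suffix probe sets preferred or with its dim probe set alone. On other single probe sets Rdx was 0.023, Fscn1 0.040, Tmsb10 -0.13 (called lower, adjusted p = 0.0484) and Arpc5l 0.043, and the 3′ Actb control set was -0.022 under quantile normalization. In these single-set cases the cause was not tested. Averaging threat animals in number pairs leaves 20 divisions and a smallest exact permutation p of 0.1, so 0 related pairs passed, and the Actb control values of 0.064 (3′), 0.14 (middle), 0.18 (5′), -0.12 (3′ minus 5′) and -0.080 (3′ minus middle) could not pass. Leaving out 1 array gave 0 to 14 pairs, 0.023 to 0.086 for the 3′ set and -0.15 to -0.087 for 3′ minus 5′. With a replicate block by number, the counts were 19 higher and 6 lower, as without it. The numbers did not pair the arrays: same-number correlations were 0.15, -0.15 and -0.03.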

Other observations

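Control pool 5-6 stood apart from the other pools on several dim probe sets of members. Myl6 read 6.26 there against 5.73 and 5.66, and a dim Arpc2 probe set read 5.203 against 4.54 and 4.54. On a second Msn probe set, threat animals 4 and 5 read 9.72 and 9.81.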
